A study of Homo sapiens with 2 samples.

Results

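The genes on either side of METTL8 on chromosome 2 were measured in RNA-seq libraries of HEK293 Flp-In T-Rex cells. HEK293 is an established human embryonic kidney line, and this derivative carries a site for the insertion of a tetracycline-controlled transgene. No treatment was listed, the medium was high glucose DMEM with foetal calf serum, and the cells gave 1 group of 2 libraries (replicates 1 and 2) of total RNA depleted of rRNA. The labels do not say whether these came from separate cultures, so the spread between them may be technical. The members were GORASP2, TLK1, DCAF17, CYBRD1, DYNC1I2, SLC25A12 and HAT1, chosen for their position beside METTL8. They are 7 of 59026 genes, with 83 of the 202217 transcripts that could be assigned to a gene.

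The study asked which METTL8 transcripts are expressed in these cells, and the neighbours were read from the same tables. Depth was 25158962 estimated counts for replicate 1 and 27143860 for replicate 2. Of 6 genes known from HEK293 cells (PAX2, LHX1, NEFL, NEFM, VIM and LIN28B), all 6 were detected, at 14.5 to 16407 normalised counts. Of 6 markers of other cell types, PTPRC, CD3E, ALB and UMOD were listed at 0 in both libraries. PECAM1 held 1.06 and 0.927 normalised counts and COL1A1 156 and 291.

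Genes that lie side by side in the human genome usually belong to different pathways, and they can be transcribed from either strand. Where genes of opposite strands overlap, a read from the overlap can be assigned correctly only if the strand of the RNA is known. The members have unrelated roles. GORASP2 encodes a Golgi stacking protein, TLK1 a nuclear kinase of histone chaperones, and DCAF17 a substrate receptor of cullin ubiquitin ligases. CYBRD1 encodes a ferric reductase of the plasma membrane, DYNC1I2 an intermediate chain of cytoplasmic dynein, SLC25A12 a mitochondrial aspartate-glutamate carrier, and HAT1 the acetyltransferase of newly made histone H4.

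The members lie between 170928464 and 171983686 on chromosome 2 (GRCh38, GENCODE v44), apart from the far end of SLC25A12. From the lowest coordinate upwards, GORASP2 (plus strand) spans 170928464 to 170967130 and TLK1 (minus) 170990823 to 171231314. METTL8 (minus) follows at 171315746 to 171434802. On its other side are DCAF17 (plus, 171434217 to 171485052), CYBRD1 (plus, 171522247 to 171558129) and DYNC1I2 (plus, 171687409 to 171750158). SLC25A12 (minus, 171783405 to 171999859) and HAT1 (plus, 171922448 to 171983686) complete the interval. The interval holds 14 listed genes, of which 6 besides METTL8 and the members are processed pseudogenes or a small nuclear RNA gene.

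Of these 6, RPS15P4 held 134 and 187 normalised counts and DAP3P2 held 3.02 and 2.43. RPS26P20 and ENSG00000234061 held 1.06 in replicate 1 and 0 in replicate 2, and RPL21P38 and RNU6-182P were listed at 0 in both libraries. RPS15P4 is a processed copy of RPS15, which held 14509 and 19219 normalised counts, so the division of reads between the copy and its parent is uncertain.

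**Figure D1:**
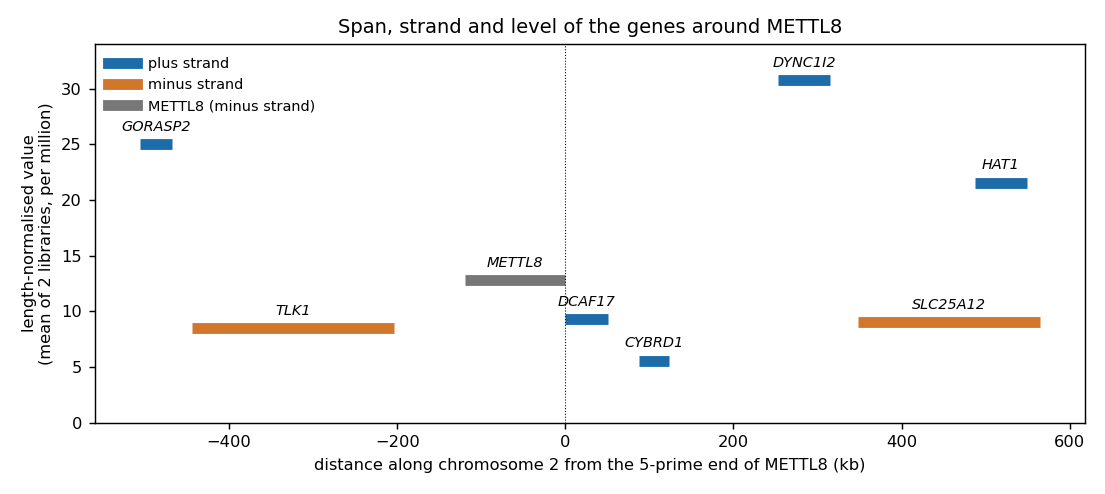
Each bar spans a gene from its start to its end, as the distance in kb from the 5-prime end of METTL8 (x axis), at the height of its mean length-normalised value over 2 libraries, scaled to 1000000 per library (y axis). DYNC1I2, GORASP2 and HAT1 stand at 21.5 to 30.7, above METTL8 at 12.8, whereas the other 4 neighbours stand at 5.59 to 9.32.

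DCAF17 and METTL8 start close to each other and run in opposite directions. The sequence between their starts is shown because METTL8 transcripts start on both of its sides. It lies at chr2:171434110-171434216, in no exon of either gene, and is given on the plus strand from the RefSeq promoter table (GRCh38.p14). Its 15 CG pairs are in capitals.

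DCAF17-METTL8: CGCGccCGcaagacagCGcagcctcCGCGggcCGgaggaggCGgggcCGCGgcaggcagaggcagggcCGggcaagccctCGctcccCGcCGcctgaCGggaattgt

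METTL8 counts were divided between transcripts that start on the METTL8 side of this stretch, and so do not reach DCAF17, and others that do. In replicate 1 the 12 transcripts of the first kind held 62.9% of METTL8, and in replicate 2 they held 51.0%. Some of the 12 start far inside METTL8, so their sum is not the share of starts near this stretch. Among these is METTL8-212, which starts at 171327065 and held 7.45% and 2.75%. The other 5 METTL8 transcripts start within the span of DCAF17 and held 37.1% and 49.0%. This division rests mainly on METTL8-201 (42.2% and 32.0%) and METTL8-217 (32.1% and 45.3%), which start on opposite sides, exchanged the lead between the libraries, and have no 50-base word that other METTL8 transcripts lack. Exons of DCAF17 and METTL8 overlapped over 129 bases, which is 1.68% of the exon length of DCAF17 and 1.10% of that of METTL8. For DCAF17-202 and METTL8-217 the overlap was 30 bases, chr2:171434674-171434703, all of them coding in DCAF17-202.

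In the other members no exon overlapped an exon of a listed gene on the opposite strand. DCAF17 was thus 1 of 7 members with such an overlap, against 41.1% of 13992 protein-coding genes that averaged 10 or more normalised counts. HAT1 lies wholly within the span of SLC25A12 on the opposite strand, without any shared exon base. Only 3 of the 10 SLC25A12 transcripts reach over HAT1. Their estimated counts were 1.63 and 10.2 in the libraries, or 0.241% and 1.58% of the SLC25A12 total.

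RefSeq gave promoter windows, from 250 bases before a start to 50 after it, for 6 of the members, all but TLK1. Their 8 windows had a median GC content of 65.5%, against 58.7% over 35116 windows of all genes, and a median of 23 CG pairs against 14. The windows of all genes were not limited to expressed protein-coding genes, the class to which all members belong. The letters GGGCGG, searched on both strands, were found in 7 of the 8 windows and in 45.0% of all windows. CCAAT was found in 3 and in 34.6% of all windows. TATAAA was found in 2, the upstream windows of CYBRD1 and DYNC1I2, and in 11.5% of all windows. These are matches of letters and not sites of binding.

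The level of each member was taken as normalised counts, that is estimated counts divided by the size factor of the library. For comparisons between genes it was divided by transcript length and scaled to 1000000 per library. Genes were called different where the libraries agreed in the order and the means were further apart than the SDs added together. The members fell into an upper set of DYNC1I2, GORASP2 and HAT1 and a lower set of DCAF17, SLC25A12, TLK1 and CYBRD1. Every gene of the upper set was above every gene of the lower set per length in both libraries, by more than the sum of the SDs.

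DYNC1I2 held 1744 normalised counts in replicate 1 and 1343 in the other library, or 1543 ± 284 (SD, n = 2). GORASP2 held 1327 and 1176, or 1251 ± 107 (SD, n = 2), and HAT1 held 1189 and 867, or 1028 ± 228 (SD, n = 2). Per length these were 30.7 ± 5.62, 25.0 ± 1.70 and 21.5 ± 4.56 (SD, n = 2 each). Their order was the same in both libraries, but the differences between DYNC1I2 and GORASP2 and between GORASP2 and HAT1 were within the sum of the SDs.

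TLK1 held 808 and 774 normalised counts, or 791 ± 24.1 (SD, n = 2). DCAF17 held 828 and 625, or 727 ± 144 (SD, n = 2), and SLC25A12 held 716 and 595, or 655 ± 86.1 (SD, n = 2). Per length DCAF17 had 9.32 ± 1.56, SLC25A12 9.06 ± 0.0506 and TLK1 8.49 ± 0.622 (SD, n = 2 each). Per length these 3 genes could not be ordered beyond their spread. With normalised counts TLK1 was above SLC25A12 beyond the sum of the SDs, and HAT1 was no longer separated from TLK1 or DCAF17.

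With all transcripts summed, CYBRD1 was the lowest member. It held 502 and 394 normalised counts, or 448 ± 76.0, and 5.59 ± 0.329 per length (SD, n = 2 each). Both libraries placed it below TLK1, by 0.60 on the log2 scale per length, and this difference exceeded the sum of the SDs. Of the 21 pairs of members, 15 differed in this way per length and 15 with normalised counts. With protein-coding transcripts only, CYBRD1 was not the lowest. Its log2 ratio to METTL8 was then 0.29, as for TLK1, against -0.06 for DCAF17 and -0.32 for SLC25A12.

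**Figure D2:**
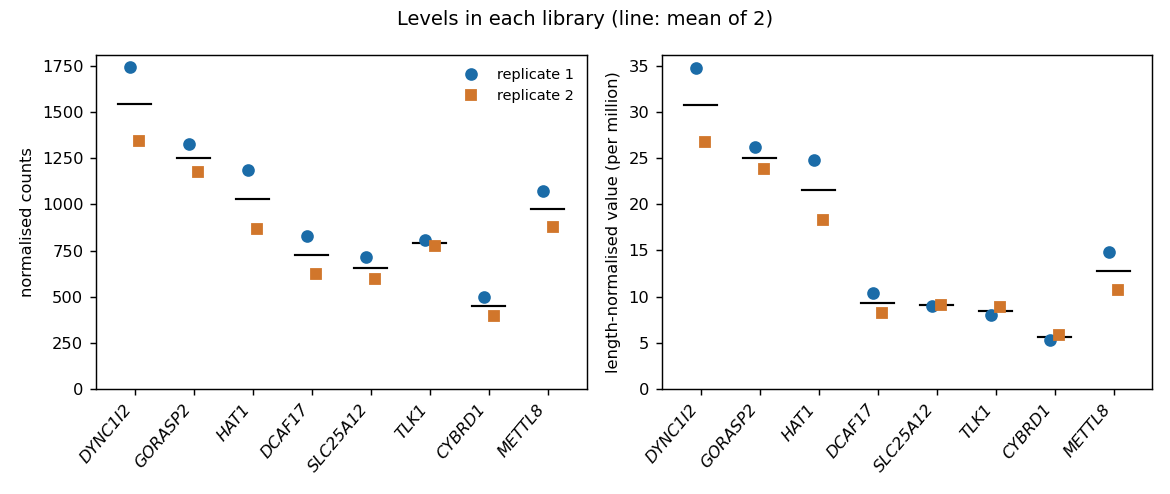
Normalised counts (left, y axis) and length-normalised values, scaled to 1000000 per library, (right, y axis) of each gene (x axis) in replicate 1 (circles) and replicate 2 (squares), with the mean as a line. CYBRD1 is the lowest gene in both panels, and TLK1 lies above DCAF17 and SLC25A12 in mean normalised counts but not per length.

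Among protein-coding genes the members ranged from below the middle to a high level. Per length, 82.5% of the 13992 genes were below DYNC1I2, 77.8% below GORASP2 and 74.2% below HAT1. For DCAF17, SLC25A12, TLK1 and CYBRD1 these shares were 50.1%, 49.1%, 47.3% and 36.4%. The median of the members was 9.32 per length, against 9.28 over these genes.

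METTL8 held 12.8 ± 2.88 per length (SD, n = 2) and lay between the upper and the lower set. Protein-coding transcripts made up 34.5% ± 20.7 of this value (SD, n = 2). METTL8-212, of 697 bases and without a defined coding sequence, held 27.8% and 11.9% of it. METTL8-201 and METTL8-217 have another version in GENCODE v44 than in the deposited data, so their lengths can differ from those used for counting. Of the 7 members, 6 differed from METTL8 by more than the sum of the SDs. DYNC1I2, GORASP2 and HAT1 were above METTL8, with log2 ratios of 1.27, 0.97 and 0.75. SLC25A12, TLK1 and CYBRD1 were below it, with -0.50, -0.59 and -1.19. DCAF17, which shares the start region, had a log2 ratio of -0.46 that stayed within the sum of the SDs, although it was lower in both libraries. With protein-coding transcripts only, TLK1 and CYBRD1 moved to 0.29 each, above METTL8, and SLC25A12 to -0.32, none of them beyond the sum of the SDs. In the same setting DYNC1I2 moved to 2.68, HAT1 to 1.95 and GORASP2 to 1.27, all still above METTL8 beyond that sum. With normalised counts DYNC1I2 had 0.66 and GORASP2 0.36, also beyond it. With normalised counts the libraries placed HAT1 on opposite sides of METTL8, at a log2 ratio of the means of 0.08.

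All 7 members had lower normalised counts in replicate 2 than in replicate 1. This was so for 55.2% of the 19110 genes with a mean of at least 10. The log2 difference (replicate 2 over replicate 1) was -0.46 for HAT1, -0.41 for DCAF17, -0.38 for DYNC1I2, -0.35 for CYBRD1, -0.27 for SLC25A12, -0.17 for GORASP2 and -0.06 for TLK1. Their median was -0.35, against -0.06 over the 19110 genes. TLK1 turned to 0.02 with total counts as the scale and to 0.003 with DESeq2 size factors, which left 6 of 7 lower, whereas 48.1% and 49.5% of the genes were lower with these scales. No member differed by more than 2-fold, against 5.76% of the genes. With 1 library on each side these differences have no test.

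**Figure D3:**
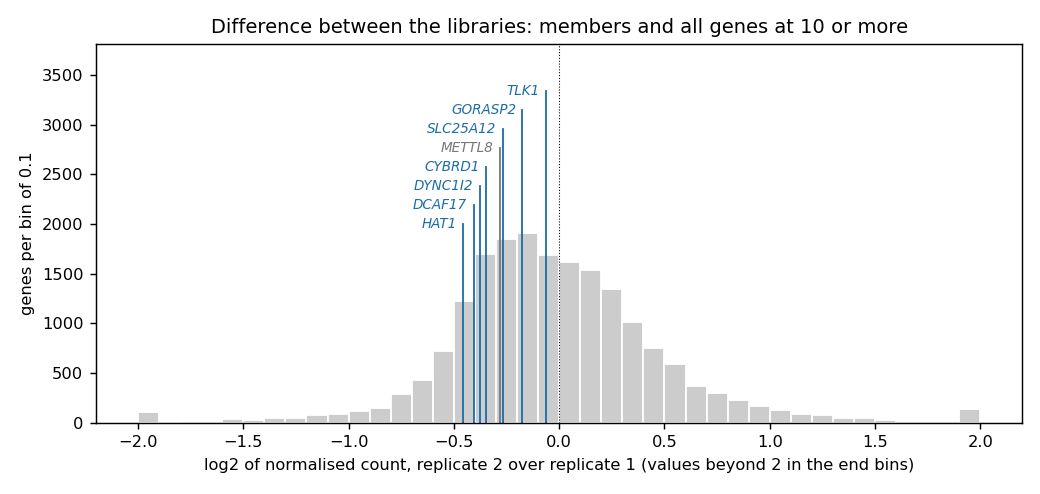
Histogram of the log2 difference between the libraries (x axis, replicate 2 over replicate 1, normalised counts, values beyond 2 in the end bins) of 19110 genes with a mean of at least 10 (y axis, genes per bin), with a line for each member (blue) and METTL8 (grey). All 7 members lie to the left of 0, between -0.46 and -0.06.

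The counts of each member were divided between 6 (HAT1) and 25 (DYNC1I2) transcripts, and 21 transcripts of the 83 had a mean share of at least 5%. At the other end, 19 were listed at 0 in both libraries and 15 in 1 library. By counting error alone, and with a limit of 3 counts, a transcript at 0 in a library can have a share of up to 0.182 to 0.706%. These values are for the member totals of DYNC1I2 in replicate 1 and CYBRD1 in replicate 2. The exact 95% intervals used below reach 0.223% and 0.864% in the same cases. Neither limit covers reads assigned to other transcripts of the gene that share the same bases. DYNC1I2-204, without a 50-base word of its own, was at 0 in replicate 1 and held 8.98% in replicate 2. Among the 33 transcripts that averaged 10 or more normalised counts, 7 differed by more than 2-fold between the libraries, against 30.4% of such transcripts over all genes.

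In 5 of 7 members both libraries had the same leading transcript by counts, and in 4 when counts were divided by length. By counts the leader differed in DYNC1I2 and SLC25A12, and divided by length also in DCAF17. Over all genes, the leader by counts differed in 18.1% of 14232 with several transcripts and at least 10 normalised counts in both libraries. In 6 of the 7 members the leading transcript by mean share had another version in GENCODE v44 than in the tables, so its length can differ from that of the model used for counting. DYNC1I2-225 was the exception. Shares have exact (Clopper-Pearson) 95% intervals, which cover counting error only.

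**Figure D4:**
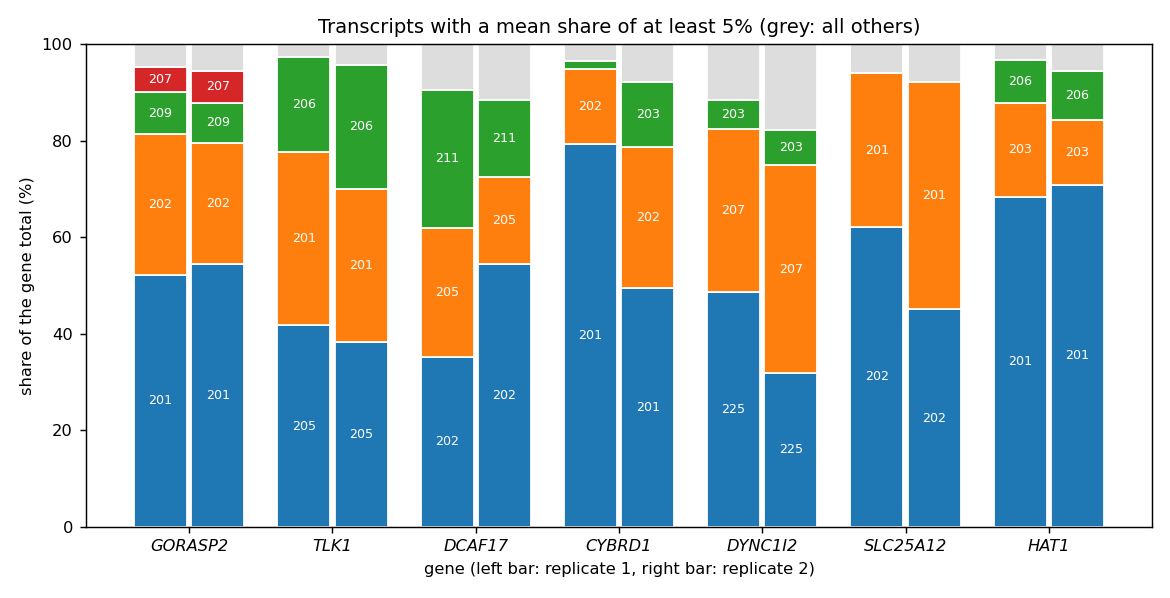
Stacked bars give the share of each gene total (y axis, %) held by transcripts at 5% or more on average, labelled by transcript number, for each member (x axis) in replicate 1 (left bar) and replicate 2 (right bar), with all others in grey. GORASP2-201 holds 52.2% and 54.3% and HAT1-201 68.3% and 70.9%, whereas CYBRD1-201 holds 79.4% in one library and 49.5% in the other.

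For 5 members the main transcripts differed by 1 or 2 exons or by a segment of an exon, and also at their ends. SLC25A12-202 has 3936 bases against 2429 in SLC25A12-201, and CYBRD1-201 has 4235 against 3540 in CYBRD1-202. DYNC1I2-225 has 2494 and DYNC1I2-207 has 2159. Shares given for an exon thus compare whole transcripts and do not measure reads over that exon alone. The alternative exons are shown because the main transcripts of a gene differ by them. Each line gives the alternative exon in capitals, with the 12 neighbouring coding bases of the transcript that contains it in lower case on both sides, 5′ to 3′ in the sense of the gene (GENCODE v44, GRCh38). The exon of SLC25A12 is at chr2:171855834-171855949 (minus), that of HAT1 at chr2:171946708-171946783 (plus) and that of CYBRD1 at chr2:171541585-171541793 (plus). The joined pair of DCAF17 is at chr2:171473866-171473975 and chr2:171476860-171476950 (plus), and the segment of DYNC1I2 at chr2:171707233-171707286 (plus).

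SLC25A12: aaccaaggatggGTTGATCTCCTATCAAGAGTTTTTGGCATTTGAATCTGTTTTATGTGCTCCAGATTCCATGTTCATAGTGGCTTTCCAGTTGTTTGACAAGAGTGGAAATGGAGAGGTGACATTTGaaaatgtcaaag
HAT1: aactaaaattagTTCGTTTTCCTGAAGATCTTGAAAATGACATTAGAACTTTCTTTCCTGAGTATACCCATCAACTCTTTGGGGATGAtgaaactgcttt
CYBRD1: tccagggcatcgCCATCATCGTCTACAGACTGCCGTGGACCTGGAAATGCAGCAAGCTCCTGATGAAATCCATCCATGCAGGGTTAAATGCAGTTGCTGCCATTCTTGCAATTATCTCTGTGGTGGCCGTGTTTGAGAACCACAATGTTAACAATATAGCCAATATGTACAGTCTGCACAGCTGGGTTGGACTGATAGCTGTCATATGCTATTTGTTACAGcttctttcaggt
DCAF17: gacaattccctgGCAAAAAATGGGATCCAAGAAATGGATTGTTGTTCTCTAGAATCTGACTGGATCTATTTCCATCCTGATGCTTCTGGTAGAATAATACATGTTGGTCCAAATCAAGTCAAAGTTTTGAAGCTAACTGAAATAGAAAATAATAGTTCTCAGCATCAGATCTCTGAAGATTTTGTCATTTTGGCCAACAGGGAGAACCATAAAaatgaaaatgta
DYNC1I2: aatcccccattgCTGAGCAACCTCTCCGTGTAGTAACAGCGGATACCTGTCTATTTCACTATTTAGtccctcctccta

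SLC25A12 was divided mainly between a protein-coding and a decay transcript. SLC25A12-202, which encodes 678 amino acids, held 421 and 289 estimated counts. SLC25A12-201, annotated for nonsense-mediated decay, held 216 and 302. SLC25A12-202 led in replicate 1 with 62.1% (58.4 to 65.9%). In replicate 2 SLC25A12-201 had 47.0% (43.2 to 51.1%) and SLC25A12-202 had 45.0% (41.2 to 49.0%). These intervals overlap, so in replicate 2 neither transcript led beyond counting error. Together they made up 93.0% ± 1.32 (SD, n = 2) of the gene.

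SLC25A12-201 lacks exon 4 of 18 of SLC25A12-202, the 116 bases shown in capitals. This length is not a multiple of 3. Of the counts in transcripts with or without this exon, those with it held 67.2% (63.4 to 70.7%) in replicate 1 and 50.3% (46.2 to 54.3%) in replicate 2, a mean of 58.7% ± 11.9 (SD, n = 2). Length-normalised values gave 51.2% ± 11.6.

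HAT1 was led by HAT1-201, which encodes 419 amino acids, in both libraries. It held 767 and 662 estimated counts, or 68.3% (65.4 to 71.0%) and 70.9% (67.8 to 73.7%). The decay transcript HAT1-203 lacks exon 3 of 11, the 76 bases in capitals, and held 19.6% (17.3 to 22.0%) and 13.3% (11.2 to 15.6%). Transcripts with the exon held 79.9% (77.4 to 82.2%) and 86.0% (83.6 to 88.3%) of the counts for this choice. HAT1-206, which retains an intron, held 9.50% ± 0.990 of the gene (SD, n = 2).

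GORASP2 and TLK1 also had a high share in a decay transcript, here through exons that are added and not skipped. GORASP2-202 held 29.1% (26.6 to 31.7%) in replicate 1 and 25.2% (22.8 to 27.6%) in replicate 2, beside the leading GORASP2-201 with 52.2% (49.4 to 55.0%) and 54.3% (51.5 to 57.1%). It has an extra exon of 104 bases after the first, at chr2:170936624-170936727. Transcripts with this exon held 31.2% and 27.3% of the counts for this choice, a mean of 29.3% ± 2.71 (SD, n = 2). GORASP2-209, with no defined coding sequence, held 8.52% ± 0.306, and GORASP2-207, with a retained intron, 5.96% ± 0.970 (SD, n = 2 each).

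TLK1-201 held 36.0% (32.6 to 39.5%) and 31.7% (28.5 to 34.9%) of TLK1, against 41.7% (38.2 to 45.3%) and 38.3% (35.0 to 41.7%) for the leading TLK1-205. TLK1-201 contains 2 exons that TLK1-205 lacks, of 69 bases at chr2:171081640-171081708 and of 258 bases at chr2:171022872-171023129. Transcripts with the shorter exon held 44.8% ± 1.13 and those with the longer 35.6% ± 2.47 of the counts for each choice (SD, n = 2 each). The intervals of the libraries overlapped for both exons. TLK1-206, which encodes 670 amino acids and starts within the gene, held 22.6% ± 4.41 (SD, n = 2) and became the leading transcript in both libraries when counts were divided by length.

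A stop codon well before the last exon junction is the usual mark of a target of nonsense-mediated decay. The end of the reading frame of each decay transcript is shown for this reason, as 27 coding bases in lower case and the stop codon in capitals (GENCODE v44). The stop codon is at chr2:170936630-170936632 for GORASP2-202 (plus) and at chr2:171081688-171081690 for TLK1-201 (minus). It is at chr2:171844454-171844456 for SLC25A12-201 (minus) and at chr2:171952907-171952909 for HAT1-203 (plus).

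GORASP2-202: gagggctaccacgttctgcggcatcaaTGA
TLK1-201: gaatcagagaaacaactggcaggcagcTGA
SLC25A12-201: gactattattcatcatcatatccctttTAA
HAT1-203: gtgaaactgcttttggttacaagggtcTAA

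In GORASP2-202 and TLK1-201 the stop codon lies in the added exon, exon 2 of 11 and exon 4 of 23. In SLC25A12-201 and HAT1-203 it follows the skipped exon, in exon 4 of 17 and exon 3 of 10. The frames before it encode 23 amino acids in GORASP2-202, 116 in TLK1-201, 87 in SLC25A12-201 and 46 in HAT1-203. The stop codon ends 1050, 2100, 1455 and 875 bases before the last junction, in the same order.

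Transcripts annotated for decay held 42.3% ± 10.4 of SLC25A12, 34.7% ± 2.64 of TLK1, 27.5% ± 2.89 of GORASP2 and 17.3% ± 4.17 of HAT1 (SD, n = 2 each). In DCAF17 the share was 2.30% ± 0.103 (SD, n = 2), in DYNC1I2 the only such transcript was listed at 0 in both libraries, and CYBRD1 has none listed. Of the 6 members with a decay transcript listed, 4 held at least 10% of their counts in this class, against 37.7% of 6021 protein-coding genes with such a transcript. The median was 22.4% over the 6 members and 5.14% over these genes. SLC25A12 was the member with the largest spread, from 34.9% in replicate 1 to 49.6% in replicate 2. Retained-intron transcripts held 0.889 to 12.8% of the 6 members that have them, with a median of 4.21% against 5.47% over 7900 genes.

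By counts, CYBRD1 and DYNC1I2 consisted almost wholly of protein-coding transcripts, with 97.6% ± 1.85 and 95.4% ± 3.29 (SD, n = 2 each). When counts were divided by length, the shares were lower, at 90.3% ± 4.81 and 86.8% ± 8.77 (SD, n = 2 each). For DYNC1I2 this share was 80.6% in replicate 1 and 93.0% in replicate 2. CYBRD1-201, which encodes 286 amino acids, held 376 and 210 estimated counts. Its share was 79.4% (75.4 to 82.9%) in replicate 1 against 49.5% (44.6 to 54.3%) in replicate 2, the largest spread of the 21 transcripts, 21.1 percentage points (SD). CYBRD1-202 lacks exon 2 of 4, the 209 bases shown, encodes 157 amino acids, and held 15.3% (12.3 to 19.0%) and 29.2% (24.9 to 33.8%). Transcripts with this exon held 84.5% (80.9 to 87.7%) and 70.6% (66.0 to 74.9%) of the counts for this choice. CYBRD1-203, with another first exon, held 8.60 and 57.4 estimated counts.

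DYNC1I2 had a leading pair of protein-coding transcripts that changed places. DYNC1I2-225 held 802 and 462 estimated counts, or 48.7% (46.2 to 51.1%) and 31.9% (29.5 to 34.4%). DYNC1I2-207 held 557 and 622, or 33.8% (31.5 to 36.1%) and 43.0% (40.4 to 45.6%). They encode 611 and 630 amino acids. Exon 4 of 16 is longer in DYNC1I2-207 by the 54 bases shown in capitals, which keeps the reading frame. This segment alone does not account for the whole difference in the number of amino acids. Transcripts with these bases held 36.3% (33.9 to 38.7%) and 44.1% (41.5 to 46.7%), a mean of 40.2% ± 5.54 (SD, n = 2), so that transcripts without them held more counts in both libraries. DYNC1I2-203 held 6.59% ± 0.924 (SD, n = 2). DYNC1I2-204, named here after its values were seen, was listed at 0 in replicate 1 and at 129.98 estimated counts in replicate 2.

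In counts, DCAF17 was led by DCAF17-202, which encodes 520 amino acids, with 275 and 367 estimated counts. Its share was 35.1% (31.8 to 38.6%) in replicate 1 and 54.5% (50.6 to 58.3%) in replicate 2. DCAF17-211 lacks exons 10 and 11 of 14, the joined 110 and 91 bases shown, and encodes 453 amino acids. It held 28.7% (25.5 to 31.9%) and 15.8% (13.2 to 18.9%). Transcripts with both exons held 69.2% (65.7 to 72.6%) and 82.8% (79.6 to 85.7%) of the counts for this choice. DCAF17-205, with no defined coding sequence, held 26.7% and 17.9%. Transcripts with an exon in the METTL8 overlap held 66.7% of DCAF17 in replicate 1 and 74.6% in replicate 2, and without them the total went from 727 to 217 normalised counts.

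**Figure D5:**
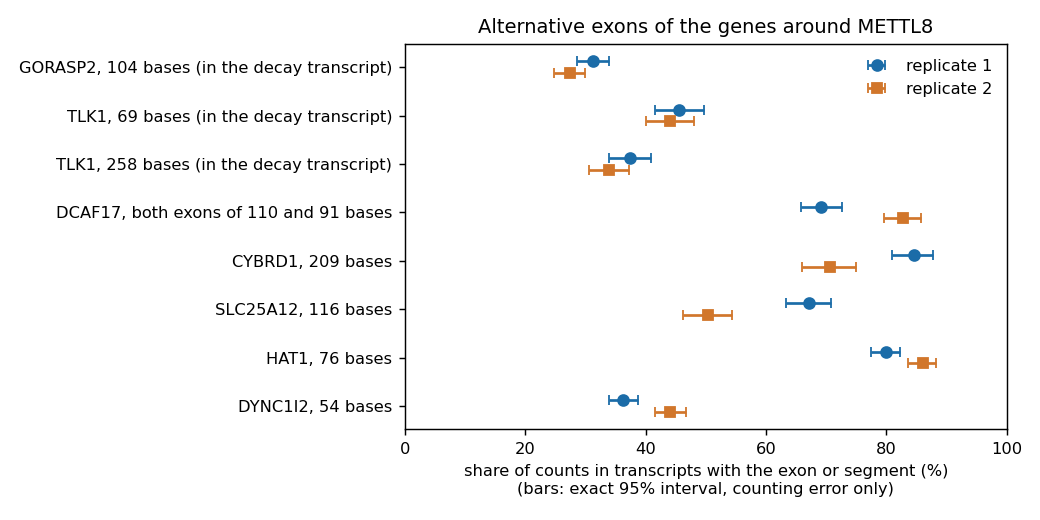
Share of counts (x axis, %) in transcripts that contain each alternative exon or segment, out of transcripts with or without it, for the members named on the y axis in replicate 1 (circles) and replicate 2 (squares), with exact 95% intervals. The intervals of the libraries overlap for GORASP2 and TLK1 and are apart for DCAF17, CYBRD1, SLC25A12, HAT1 and DYNC1I2. Transcripts with and without an exon also differ at their ends.

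The intervals of the libraries did not overlap for the exons of DCAF17, CYBRD1, SLC25A12, HAT1 and DYNC1I2. RSEM assigns reads to transcripts through the bases in which they differ. Of the 50-base words of the 21 named transcripts, a median of 2.23% occurred in no other listed transcript of the same gene. DYNC1I2-225, DYNC1I2-207 and TLK1-205 had no such word. SLC25A12-202 had 35.2% and GORASP2-201 21.1%, whereas SLC25A12-201 had 2.02% and HAT1-201 0.252%.

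The members were also set beside 26 genes for their paralogues, partners and targets. Per length, 19 of these were above their member, 6 below it, and 1 was not beyond the sum of the SDs. With normalised counts, 16 were above and 7 below.

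For DYNC1I2, GORASP2, TLK1 and SLC25A12, RNA summed over all transcripts showed which copy of the pair was more abundant. DYNC1I1, the intermediate chain known from neurons, held 103 ± 18.7 normalised counts (SD, n = 2), and DYNC1I2 made up 95.7% ± 0.0609 of the pair per length. GORASP2 made up 73.2% ± 3.04 of its pair with GORASP1, which held 625 and 675 normalised counts. TLK1 was the lesser of its pair, with 24.9% ± 4.08 beside TLK2, which held 1917 and 1615. SLC25A12 was likewise below SLC25A13, the paralogue known from liver, with 39.0% ± 0.161 of the pair (SD, n = 2 each). These differences exceeded the sum of the SDs on both scales. Restricting the sums to protein-coding transcripts took the log2 ratio per length of GORASP2 over GORASP1 from 1.45 to 4.32 and that of SLC25A12 over SLC25A13 from -0.65 to -1.69.

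CYBRD1 had paralogues of similar level. Per length it was below CYB561 by 0.85 and below CYB561A3 by 0.48 on the log2 scale, both beyond the sum of the SDs. The difference from CYB561D2 was -0.06, within that sum. With normalised counts CYBRD1 was above CYB561D2 by 1.36, beyond the sum of the SDs, and the libraries gave opposite orders for CYBRD1 and CYB561A3.

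Partners were mostly more abundant than the members. DDB1 and the cullins CUL4A and CUL4B, which form the ligase that DCAF17 joins, had 122.5 ± 10.8, 38.8 ± 2.80 and 28.1 ± 3.34 per length, against 9.32 for DCAF17. RBBP7, the binding partner of HAT1 on histones, had 311 ± 76.8 and the histone chaperone NASP 121.7 ± 14.8, against 21.5 for HAT1 (SD, n = 2 each). ASF1A and ASF1B, the chaperones that TLK1 phosphorylates, had 7.21 ± 0.640 and 23.2 ± 0.105 (SD, n = 2 each), below and above TLK1. The order of TLK1 and ASF1A was that in both libraries.

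The other subunits of dynein included the heavy chain DYNC1H1 with 128.6 ± 4.90, the light chain DYNLL1 with 93.6 ± 9.88 and DYNLRB1 with 48.3 ± 3.84. Per length DYNLRB1 was above DYNC1I2, but with normalised counts it was below it, at 846 and 937, and both differences exceeded the sum of the SDs. The light intermediate chain DYNC1LI2 had 38.3 ± 0.333, above DYNC1I2, and DYNC1LI1 had 21.4 ± 3.35, below it (SD, n = 2 each). In the malate-aspartate shuttle, in which SLC25A12 carries aspartate out of mitochondria, all enzymes and the other carrier were above SLC25A12. MDH2 had 212 ± 20.0, GOT2 121.0 ± 2.17, MDH1 98.5 ± 15.3, SLC25A11 51.3 ± 9.44 and GOT1 31.8 ± 0.0599 per length, against 9.06 for SLC25A12 (SD, n = 2 each). The Golgi partners of GORASP2 were below it, with 5.49 ± 0.435 for BLZF1 and 16.6 ± 1.93 for GOLGA2 (SD, n = 2 each). With normalised counts, however, GOLGA2 was above GORASP2 in both libraries, within the sum of the SDs.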

How the data were processed

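Total RNA of HEK293 Flp-In T-Rex cells was depleted of rRNA and sequenced as 2 TruSeq libraries. The authors deposited, per transcript, an estimated count made with RSEM and a normalised signal, in which every estimated count of a library was divided by its size factor (0.945 and 1.08). The submitters' processing notes name FastQC, STAR 2.7.0d, RSEM 1.3.3 and R 3.6.3. GRCh38 is given in the data statement of the paper, which names no assay there, and in its methods for the crosslinking experiment. Whether strand was used in counting is not given in the sources used here. All 34 rows of the separate METTL8 tables equalled those of the full tables.

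Identifiers without version were matched to GENCODE v44 (202217 of 206696; 173547 with the same version), holding 96.9% and 96.8% of the counts. Unmatched transcripts stayed in library totals only. Sums per gene used all matched transcripts. Length-normalised values used GENCODE v44 lengths without an effective length correction. The genes, exons, transcripts and lists named were chosen with earlier results of these data known. Named were the 7 members, METTL8, member transcripts at 5% or more of their gene on average, other genes of the interval at 1 normalised count or more, and the paralogues and partners. The alternative exons were chosen after the transcript values were seen.

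The labels give 1 group, so groups were not compared, and a two-sided sign-flip test of 2 libraries cannot give a p-value below 0.5. Values are means ± SD. A difference between genes was called where the order was shared by the libraries and the means lay further apart than the SDs added together. The rules that find leading transcripts and 2-fold differences were checked on simulated data with known changes. The simulation held large changes and counting error only. It cannot show how the assignment of reads between transcripts affects these rules. Analysis used Python 3.11.15, scipy 1.17.1, and edgeR 4.0.16 and DESeq2 1.42.0 for alternative scales only. The alternatives covered scale, length, transcript class, version, low values and overlap.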

Additional observations from a re-analysis of the deposited data

How the results depend on the processing

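No paired analysis was possible because the libraries form 1 group. The call of a difference between genes needs both libraries, so leaving out a library gave no count of such calls, and with 2 libraries a mean always moves by less than 1 SD. Of 204 recomputed values, 9 turned direction, all given here.

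The summed members held 6444 normalised counts on average, 4643 with protein-coding transcripts only and 3779 with transcripts of the same version only; both leave out transcripts by construction. Divided by transcript length, the mean share of the leading transcripts went from 52.3% to 38.7%, that of protein-coding transcripts from 71.8% to 61.3% and that of decay transcripts from 17.7% to 18.9%. With protein-coding transcripts only, 3 members and not 6 differed from METTL8 (5 with normalised counts, which ended the call of HAT1, at 0.08), the call of SLC25A12 ended at -0.32, and the log2 ratios of TLK1 and CYBRD1 to METTL8 turned from -0.59 and -1.19 to 0.29 each, without a call; the cause was not tested. The TLK1 difference between the libraries turned from -0.06 to 0.019 with total counts, 0.0032 with DESeq2 size factors and 0.0024 with protein-coding transcripts. CYBRD1 over CYB561A3 turned from -0.48 to 0.038 with normalised counts. CYBRD1 over CYB561D2 turned from -0.06 to 1.36 with normalised counts and to 0.27 with protein-coding transcripts, and ran from -0.17 without replicate 2 to 0.049 without replicate 1.

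Depth was 425 to 1649 estimated counts per member and library, which limits shares of single transcripts more than sums per gene.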
